A study of Mus musculus with 11 samples.

Results

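miR-132 was measured with 1 of the 517 miR assays of PCR arrays (the assay named mmu-miR-132) run on whole aortas from 11 female apoE-/- mice. It was chosen by name, as the product of the miR-212 and miR-132 cluster that is induced by the transcription factor CREB and, in the vessel wall, by angiotensin II. miR-212, its partner in the cluster, is not analysed here. All mice lack apolipoprotein E, which makes them prone to atherosclerosis, and all are labelled with an age of 6 to 8 weeks, without saying at which point of the study. The control group held 4 mice on a regular diet, with aortas described as non-atherosclerotic. Another 4 mice had 3 months of a high fat diet and 3 mice had 10 months of it, with aortas described as atherosclerotic. That feed contained 21% crude fat, 19.5% casein and 0.15% cholesterol. For the longest diet group the treatment label says 3 months but the titles say 10 months, and the titles were followed. The labels do not give the length of the control diet, so time on the diet and age cannot be told apart.

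miR-132 and miR-212 are cut from neighbouring hairpins of 1 primary transcript. In neurons that transcript is a classic target of CREB, switched on by synaptic activity and growth factors. In human endothelium, angiogenic growth factors induce miR-132, which lowers the Ras inhibitor p120RasGAP (Rasa1). In rat arteries and smooth muscle both miRs respond to angiotensin II, and in mouse macrophages miR-132 targets acetylcholinesterase.

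The sequences below are shown because the assay name gives no arm and because the strands of the 2 hairpins share a seed. They come from RefSeq on GRCm38.p6. The capitals in the mature strands mark the seed, bases 2 to 8 from the 5′ end. The capitals in the hairpin mark its 5p and 3p strands.
miR-132-3p: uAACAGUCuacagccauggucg
miR-132-5p: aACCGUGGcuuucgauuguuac
miR-212-3p: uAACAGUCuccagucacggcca
Mir132 hairpin: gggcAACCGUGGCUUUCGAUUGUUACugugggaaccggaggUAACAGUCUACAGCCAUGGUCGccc

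In the naming of the period a miR without a suffix is the main product of its hairpin, here the strand now called miR-132-3p. The sources used here do not give the assay's own sequence. The miR-132 hairpin lies at chr11:75173682-75173747 on the plus strand (GRCm38.p6), with miR-132-3p at chr11:75173723-75173744. The Mir212 hairpin precedes it at chr11:75173388-75173478, with 203 bases between them. Neither overlaps another listed gene, and the nearest protein-coding genes are Hic1 on one side and Ovca2 on the other. miR-132-3p and miR-212-3p share 17 of 22 bases. Counted from the 5′ end of miR-132-3p, the substitutions to miR-212-3p are A10C, C14U, U17C, U20C and G22A, all outside the seed. Of 1738 mature mouse strands in the RefSeq table, only these 2 carry the seed AACAGUC. Whether the assay also reads miR-212 was not tested.

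The values are threshold cycles, the PCR cycle at which an assay's signal crosses its threshold, so a lower number means more template, and 1 cycle is about 1 step on the log2 scale. miR-132 was detected (below 35 cycles) in 11 of 11 mice. Its cycle number was 21.566, 22.644, 21.175 and 21.98 in control replicates 1 to 4. After 3 months it was 20.859, 20.426, 22.348 and 21.6, and after 10 months 20.042, 23.182 and 20.577. The 3 groups overlap on this scale, and the latest cycle belongs to replicate 2 of the 10-month group. That array was late on average: the mean cycle of the 285 miRs detected in every mouse was 26.9 there and from 23.2 to 25.3 in the other 10 mice. Between 322 and 380 miRs were detected per mouse.

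Relative to that array mean, miR-132 was higher on average in both high fat diet groups than in controls, but it did not pass the test across all miRs in any comparison. On this log2 scale the level was 2.44, 2.65, 2.09 and 2.14 in controls. It was 2.90, 3.37, 2.59 and 2.82 after 3 months. It was 3.45, 3.74 and 2.59 after 10 months. Replicate 3 was the lowest mouse and replicate 2 the highest in each of the 3 groups. In both diet groups replicate 3 alone lay below the highest control. The main tests take no account of the replicate number, and a model with it as a block is given at the end.

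**Figure D1:**
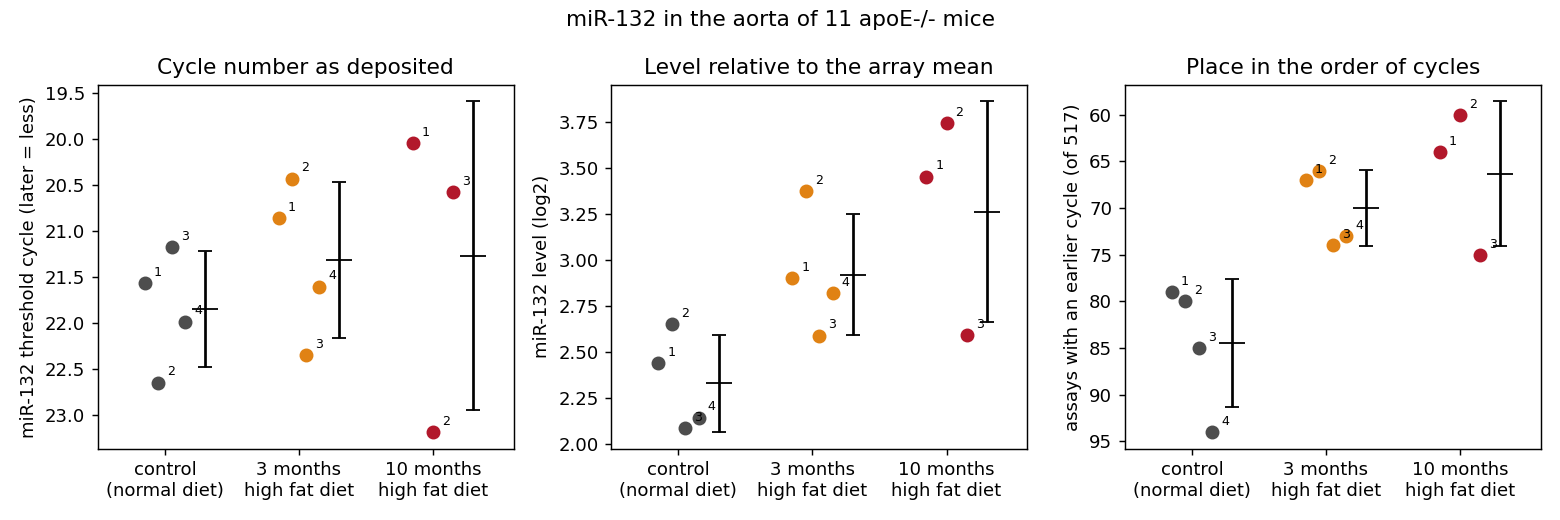
miR-132 in each mouse by group, with replicate numbers beside the points and the mean and SD as a bar to the right (n = 4, 4 and 3). From left to right the axes show the threshold cycle (inverted), the log2 level relative to the array mean and the number of 517 assays with an earlier cycle (inverted). Replicate 2 of the 10-month group is lowest on the first axis and highest on the other axes.

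Aortas after 10 months of the diet were compared with control aortas to ask what differs late in the disease. The level of miR-132 averaged 3.26 ± 0.60 (SD, n = 3) after 10 months and 2.33 ± 0.26 (SD, n = 4) in controls. This is a log2 fold of 0.93 (SE 0.34), or 1.91-fold, with a 95% interval from 1.13-fold to 3.23-fold that is not adjusted for the number of miRs. limma gave an unadjusted p of 0.0211 and a Benjamini-Hochberg adjusted p of 0.165 over the 353 miRs tested, so miR-132 was not called. limma called 16 of 353 miRs, or 4.53%, in this comparison, and miR-132 ranked 45 by p. A higher fold was found in 47 miRs, and the median fold of all tested miRs was 0.00 on the log2 scale. Of the 3 mice, 2 lay above every control. In 6.52% of all tested miRs every 10-month mouse lay above every control, and miR-132 was not among them. The exact two-sided permutation p was 0.0571, against a smallest possible value of 0.0286, and 0.0857 after adjustment over the 3 comparisons of miR-132.

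The 3-month mice show what differs earlier on the diet. miR-132 was at 2.92 ± 0.33 (SD, n = 4) after 3 months, a log2 fold of 0.59 (SE 0.32) or 1.51-fold against the same controls. The unadjusted 95% interval ran from 0.925-fold to 2.45-fold and so included no difference. limma's adjusted p was 0.635 (unadjusted 0.0911). Of 353 miRs limma called 0 (0%), and an unadjusted p under 0.05 was found for 10 on the higher side and 20 on the lower side. Of the 4 mice, 3 lay above every control. Full separation upward occurred in 2.83% of tested miRs and not in miR-132. The exact two-sided permutation p was 0.0571, or 0.0857 after adjustment over the 3 comparisons.

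Between 10 and 3 months of the diet the log2 fold was 0.34 (SE 0.34), or 1.27-fold, with an unadjusted 95% interval from 0.748-fold to 2.15-fold. limma's adjusted p was 0.691, and the exact two-sided permutation p was 0.314. Of 353 miRs limma called 0 (0%), and an unadjusted p under 0.05 was found for 22 on the higher side and 24 on the lower side. Full separation upward occurred in 5.38% of tested miRs. The means therefore ran in the order control, 3 months, 10 months, and neither pair of neighbours in that order differed past the test. Without replicate 2 of the 10-month group the fold against control was 0.69 and the fold against 3 months was 0.09 on the log2 scale.

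**Figure D2:**
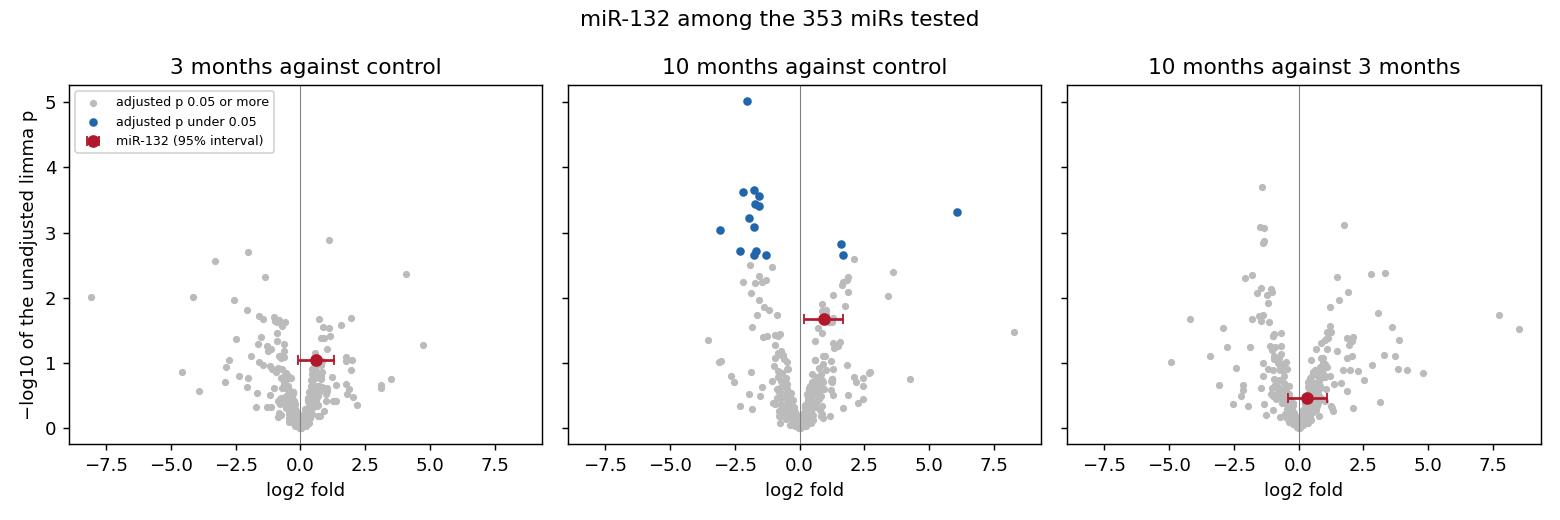
Log2 fold (x axis) against −log10 of the unadjusted limma p (y axis) for the 353 miRs tested in each comparison. miR-132 is the red point with its 95% interval, and blue points are miRs with an adjusted p under 0.05. miR-132 lies right of 0 in all 3 panels and among the uncalled miRs.

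The spread of miR-132 between mice of a group was small for this data set. Its pooled SD within groups was 0.40 on the log2 scale, against a median of 0.66 over the 353 tested miRs, and 51 of them had a smaller SD. The tested miRs include some not detected in every mouse, and miRs of a similar cycle were not compared apart.

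A measure that needs no array centre is the number of assays with an earlier cycle than miR-132 on the same array. It is the order of cycles, not of abundance, since assays differ in efficiency. In controls 79, 80, 85 and 94 of 517 assays came earlier. After 3 months the numbers were 67, 66, 74 and 73, and after 10 months 64, 60 and 75. In this order miR-132 came earlier in all 7 diet mice than in all 4 controls. Such a full separation upward was found in 2.83% of tested miRs at 3 months and 5.38% at 10 months against control. Between 10 and 3 months miR-132 overlapped, where 3.97% of miRs separated.

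The deposited normalized values of miR-132 are its cycle minus the mean of the small-RNA controls snoRNA202 and snoRNA429, so a lower value means more miR-132. They were 5.36, 5.24, 5.75 and 5.60 in controls, 4.94, 4.16, 6.41 and 5.52 after 3 months and 4.55, 3.47 and 4.98 after 10 months. On this scale all 3 mice at 10 months had more miR-132 than every control, whereas the 3-month mice lay on both sides of the controls. The share of all miRs so separated was not counted on this scale. Its median log2 fold of all tested miRs at 10 months against control was 0.20.

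Each small-RNA control gave another size of difference for miR-132. Relative to snoRNA202 on the same card, the log2 level was -5.47 ± 0.32 (SD, n = 4) in controls, -5.49 ± 0.51 (SD, n = 4) at 3 months and -4.21 ± 0.50 (SD, n = 3) at 10 months. The 10-month mice lay above both other groups with no overlap, and the 3-month mice lay among the controls. Relative to snoRNA429, the controls fell in a narrow range from -5.38 to -5.25. The 3-month mice ran from -6.26 to -3.72, on both sides of them, and the 10-month mice from -4.94 to -3.51, all above them. The share of all miRs without overlap was not counted relative to any single reference assay, here or below.

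With U6 or snoRNA135 as reference, the 3-month mean of miR-132 lay below the control mean. Relative to U6 the mean of miR-132 was 1.15 lower after 3 months and 0.54 higher after 10 months than in controls, on the log2 scale. Relative to snoRNA135 it was 0.71 lower and 1.07 higher. The SD of these levels among controls was 1.52 with U6 and 1.14 with snoRNA135, and the control and 3-month ranges overlapped. With U87 the mean differences from control were 0.04 and 1.32, and with Y1 they were 0.34 and 1.33, again with overlapping ranges. With snoRNA135, snoRNA202, snoRNA429 and U6 averaged as the reference, over their wells on both cards, the 3-month fold of miR-132 was -0.10. The values above took U6, snoRNA135 and snoRNA202 from the first card alone. Such an averaged reference moves all miRs of an array by the same amount: the median fold of all tested miRs at 3 months was -0.75 under it and -0.05 with the array mean. The distance of miR-132 from that median, 0.65, is the same by construction when 1 number per array is subtracted from the same values. It was 0.64 with quantile normalization and 0.57 with each card centred by itself, where the assays are not all shifted alike. With the deposited values, which also take 1 number per array from the cycles, it was 0.63. The source of that small departure was not tested.

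**Figure D3:**
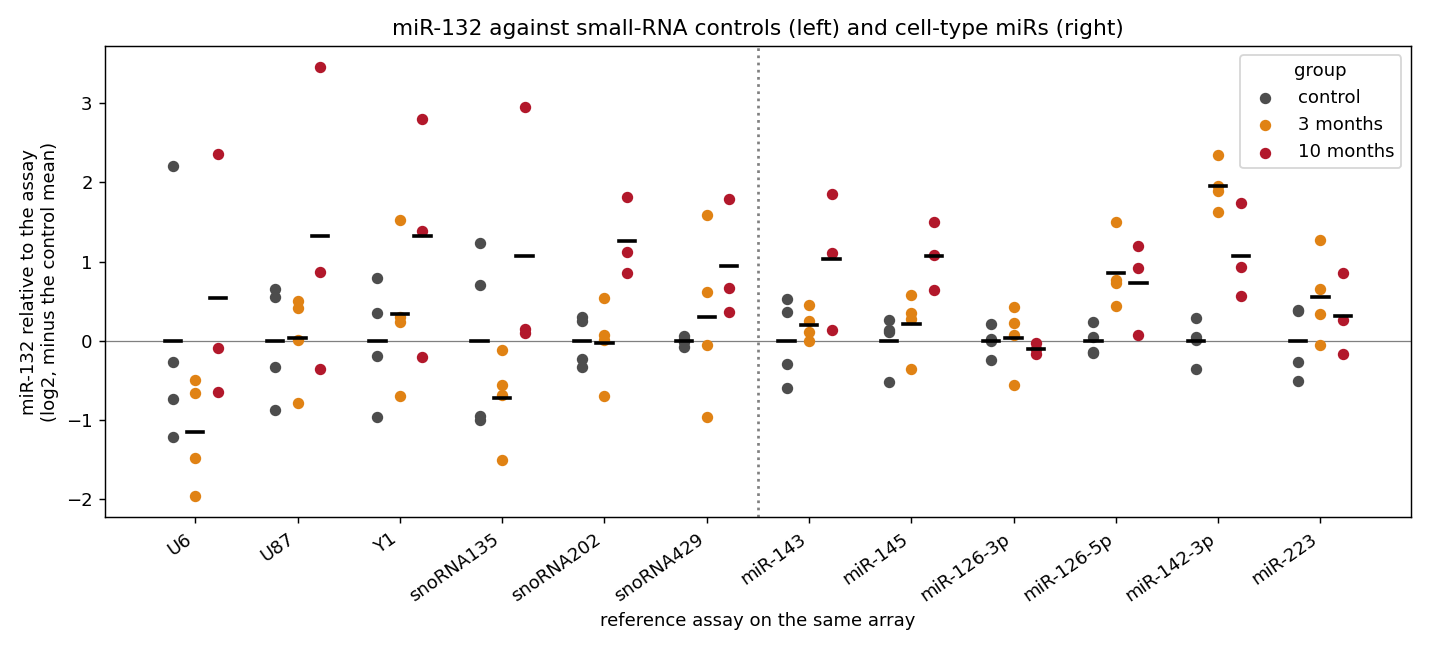
Level of miR-132 relative to each of 12 assays on the same array, as log2 minus the control mean, for every mouse, with bars at the group means. Left of the dotted line are small-RNA controls and right of it miRs of smooth muscle (miR-143, miR-145), endothelium (miR-126-3p, miR-126-5p) and leukocytes (miR-142-3p, miR-223). The group means lie closest together relative to miR-126-3p.

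MiRs of the wall were looked up by detection alone. The smooth muscle markers (miR-143, miR-145 and miR-145*) and the endothelium markers (miR-126-3p and miR-126-5p) were detected in every mouse. So were 285 of the 517 miR assays, among them miR-122 of liver and miR-1 of striated muscle. Detection therefore does not check the tissue label. In whole tissue, fewer cells of a type and less RNA per cell cannot be told apart, and miR-132 is made by several cell types of the wall.

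Relative to the smooth muscle miRs, miR-132 was higher after 10 months. Against miR-145 its log2 level was -9.73 ± 0.35 (SD, n = 4) in controls, -9.51 ± 0.39 (SD, n = 4) at 3 months and -8.65 ± 0.43 (SD, n = 3) at 10 months. The 10-month mice lay above all others. Against miR-143 the means were -5.42, -5.21 and -4.38, and the 10-month range, from -5.28 to -3.57, overlapped the controls.

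Relative to miR-126-3p, the main endothelial miR, the group means of miR-132 lay within 0.14 of each other on the log2 scale. The level was -6.06 ± 0.19 (SD, n = 4) in controls, -6.02 ± 0.43 (SD, n = 4) at 3 months and -6.16 ± 0.07 (SD, n = 3) at 10 months. The 10-month mice, from -6.24 to -6.09, lay inside the control range of -6.31 to -5.85. The other arm of that hairpin did not give the same picture. Relative to miR-126-5p, miR-132 was 0.86 higher after 3 months with no overlap with controls and 0.73 higher after 10 months with overlap.

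Against the leukocyte miRs the order of the groups changed. Relative to miR-142-3p, miR-132 was at -1.18 ± 0.26 (SD, n = 4) in controls, 0.78 ± 0.30 (SD, n = 4) at 3 months and -0.10 ± 0.60 (SD, n = 3) at 10 months, and both diet groups lay above every control. miR-142-3p itself, relative to the array mean, had a log2 fold against control of -1.37 at 3 months and -0.14 at 10 months. The difference at 3 months therefore holds a lower miR-142-3p as well as a higher miR-132. Relative to miR-223 the means of miR-132 were -2.60, -2.04 and -2.28 with overlapping ranges.

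Markers of other cells differed between the same mice. The mean log2 level of the 5 leukocyte markers (miR-142-3p, miR-142-5p, miR-223, miR-150 and miR-155) ran from 1.69 to 2.33 in controls and from 1.59 to 2.24 after 3 months. After 10 months it was 3.40, 3.31 and 2.05 in replicates 1, 2 and 3. The replicates high for these markers at 10 months are also the replicates high for miR-132. The endothelium markers had means of 6.69 to 7.10 in controls, 6.60 to 7.20 after 3 months and 7.49, 7.71 and 7.09 after 10 months, where the same replicate was lowest. The smooth muscle markers ranged from 4.41 to 5.29 in controls, 4.89 to 5.37 after 3 months and 4.60 to 5.12 after 10 months. The part of these markers in the miR-132 values was not tested, nor was that of the lists that follow.

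Nerve in the wall is of interest because miR-132 is abundant in neurons. Of the 11 neuron and perivascular nerve markers, miR-153 was detected in no mouse, and miR-124, the defining neuronal miR, in 1 of 4 controls, 2 of 4 mice at 3 months and 1 of 3 at 10 months. The mean of the list ran from -6.07 to -3.31 in controls, -5.32 to -3.67 after 3 months and -4.85 to -3.14 after 10 months. Of the 9 tested members 1 rose at 10 months against control: miR-129-5p, named after its values were seen, with a limma adjusted p of 0.0246 and detected in 1 of 4 controls and 3 of 3 mice at 10 months. It kept that call in 11 of 23 alternatives, run for it after seeing the data. Of all tested miRs 4.53% were called in that comparison, 3 of 353 on the higher side. Within the 10-month group replicate 3 was highest for this list and lowest for miR-132.

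Fat around the vessel was checked through brown fat markers. These (miR-193, miR-193b and miR-365) had means of 3.24 to 4.07 in controls, 3.84 to 4.36 after 3 months and 4.20, 5.36 and 3.93 after 10 months, in the same order as miR-132 in those 3 mice. Of the 3 markers 1 rose at 10 months against control, miR-193, with a log2 fold of 1.66 (limma adjusted p = 0.0489), where 4.53% of all tested miRs were called and 3 of 353 on the higher side. It kept that call in 8 of 24 alternatives, likewise run after seeing the data. The striated muscle markers ranged from -3.18 to -1.84, from -3.80 to -2.21 and from -2.70 to -2.39 in the 3 groups, with miR-499 detected in 1 of 4 controls and in no other mouse. The red cell and platelet markers ranged from -4.14 to 2.15, from 0.35 to 1.38 and from -2.18 to 1.03. The liver marker miR-122 ranged from -2.84 to 2.07, from -0.22 to 1.51 and from -0.50 to 0.95.

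Other vascular miRs tied to angiotensin II were taken as a list of 11: miR-21, miR-155, miR-221, miR-222, miR-29a, miR-29b, miR-29c, miR-143, miR-145, miR-129-3p and miR-34a. All 11 were tested. At 10 months against control 0 rose, 0 fell and 11 did not pass limma, beside 4.53% called among all tested miRs. A positive fold was found in 9 of 11, beside 178 of 353 or 50.4% of all tested miRs. Their median log2 fold was 0.85, beside 0.00 for all tested miRs and 0.93 for miR-132. At 3 months the counts were also 0 and 0, with 9 positive folds, beside 47.0% positive among all tested miRs, and a median of 0.39, beside -0.05. Between 10 and 3 months 0 passed, with 9 positive, beside 55.0%, and a median of 0.48, beside 0.06.

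The 3 members with the smallest p at 10 months were miR-129-3p, miR-155 and miR-29a. For miR-129-3p the log2 fold was 3.61 (SE 0.98, limma adjusted p = 0.0715). For miR-155, which macrophages and lymphocytes make on activation, it was 1.83 (SE 0.52, limma adjusted p = 0.0738). For miR-29a, which lowers collagen and elastin messages, it was 0.87 (SE 0.29, limma adjusted p = 0.126). Under other processing miR-129-3p passed the threshold in 3 of 24 alternatives, miR-155 in 3 and miR-29a in 1. The mean of the list per mouse was 3.20, 3.19, 3.07 and 3.17 in controls, 3.82, 4.04, 3.20 and 3.34 after 3 months and 4.28, 4.28 and 3.87 after 10 months. The 10-month mice lay above every control in this mean, and the 3-month mice reached from the control level to 4.04. The mean includes miR-129-3p, whose fold was the highest of the list. In addition, miR-143, miR-145, miR-155 and miR-129-3p also stand among the cell type markers above.

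The miRs linked to CREB or to activity in neurons made a second list of 9: miR-134, miR-138, miR-184, miR-9, miR-124, miR-219, miR-128a, miR-125b-5p and miR-22. All but miR-124 were tested, 8 in all. At 10 months 0 rose, 0 fell and 8 did not pass, beside 4.53% called among all tested miRs. The folds were positive in 4 and negative in 4, beside 50.4% positive among all tested miRs, with a median of 0.05 on the log2 scale. At 3 months 0 passed, with 3 positive, 5 negative and a median of -0.16, beside 47.0% positive and a median of -0.05 among all tested miRs. Between 10 and 3 months 0 passed, with 4 positive and a median of 0.05, beside 55.0% and 0.06. Among all 353 tested miRs 0 were called in either of these comparisons.

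The smallest p at 10 months in this list belonged to miR-134, miR-184 and miR-219. For miR-134, a regulator of dendritic spines, the log2 fold was -0.97 (SE 0.55, limma adjusted p = 0.486), with -1.67 without 10-month replicate 2 and -0.38 without replicate 3 of that group. For miR-184 it was 1.28 (SE 0.76, limma adjusted p = 0.525), with 0.62 without control replicate 2, 0.72 without 10-month replicate 2 and 0.64 with a limit of 32 cycles. For miR-219, a miR of oligodendrocytes, it was 2.73 (SE 1.69, limma adjusted p = 0.55), with detection in 2 of 4 controls, 1 of 4 mice at 3 months and 3 of 3 mice at 10 months. The fold of miR-219 was 1.22 with a limit of 32 cycles, 0.32 with undetected wells left missing and 1.59 without control replicate 3.

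The miRs whose level was most like that of miR-132 over the 11 mice were sought among the 284 others detected in every mouse. The 5 most alike by Pearson r were miR-146b (0.91), miR-126-3p (0.89), miR-29a (0.88), miR-146a (0.87) and miR-222 (0.87). Their Spearman rho was 0.95, 0.94, 0.88, 0.87 and 0.89 in the same order. Over all 284 the median r was 0.04, and 8 exceeded 0.8. These values describe 11 mice that share arrays, centring and groups, and all 5 assays stand on the same card as miR-132. With the 2 mice farthest from the median miR-132 level left out, replicates 1 and 2 of the 10-month group, r was 0.83, 0.73, 0.79, 0.68 and 0.72. Taken as deviations from the group means, r was 0.80, 0.75, 0.72, 0.69 and 0.84.

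**Figure D4:**
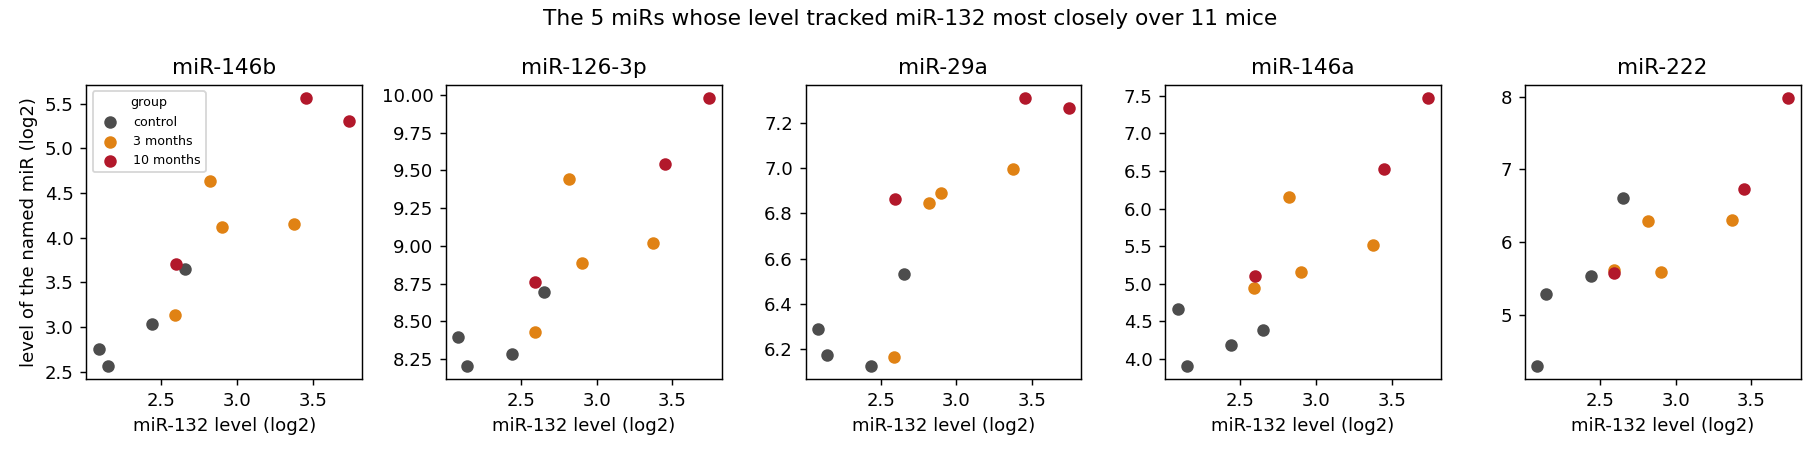
Log2 level of the 5 miRs most like miR-132 (y axes) against the log2 level of miR-132 (x axes), 1 point per mouse, coloured by group. In all 5 panels the highest point on the x axis is replicate 2 of the 10-month group, at a miR-132 level of 3.74.

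Of these 5, miR-146a and miR-146b are feedback inhibitors of NF-kB signalling. At 10 months against control their log2 folds were 2.08 (SE 0.52, limma adjusted p = 0.0533) and 1.86 (SE 0.52, limma adjusted p = 0.0738), and at 3 months 1.16 and 1.01. miR-126-3p had 1.03 (SE 0.36, limma adjusted p = 0.139) at 10 months and 0.55 at 3 months. miR-222, which acts on growth of smooth muscle and endothelium, had 1.33 (SE 0.63, limma adjusted p = 0.334) and 0.52, and the former was 0.72 without 10-month replicate 2. With miR-29a at 0.87 and 0.45, limma called 0 of the 5 in either comparison, beside 4.53% of all tested miRs at 10 months and 0% at 3 months. At 10 months this depended on the processing: miR-146a passed the threshold in 7 of 24 alternatives, miR-146b in 4 and miR-29a in 1. miR-126-3p and miR-222 passed in 0. Their folds share the direction of miR-132 through the way they were chosen, since r was taken over the same mice and controls. Under the reference of small-RNA controls, which lowers every 3-month fold alike, those of miR-126-3p, miR-222 and miR-29a were negative too.

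**Figure D5:**
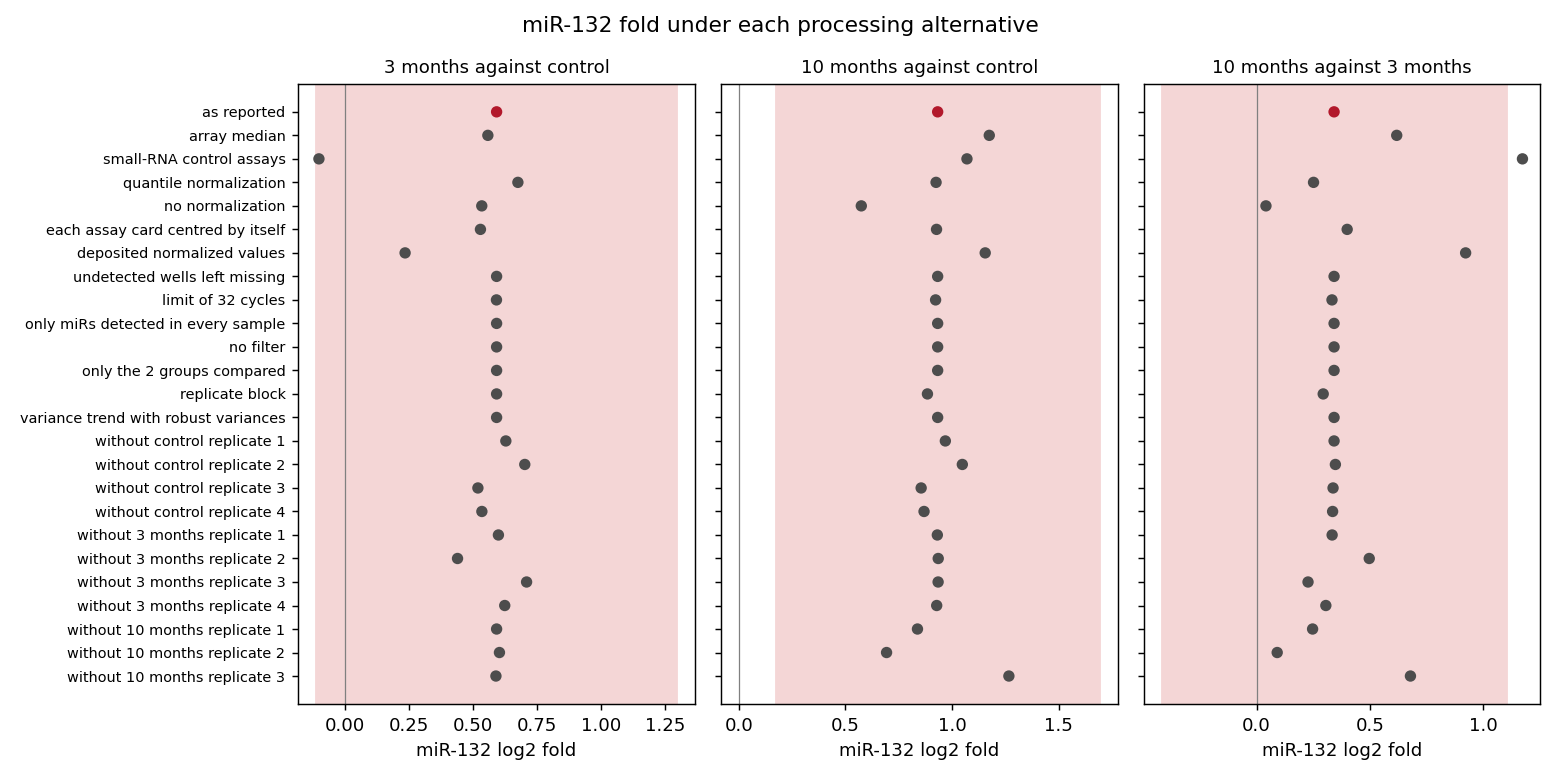
Log2 fold of miR-132 (x axes) under each processing alternative (y axis) in the 3 comparisons, with the reported value in red and its 95% interval shaded. The folds at 10 months against control lie between 0.57 and 1.27. At 3 months 1 alternative, the small-RNA control assays, lies below 0, at -0.10.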

How the data were processed

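Total RNA of whole aorta was extracted with the mirVana kit, and RNA with an integrity number above 8 was used, per the labels' protocols. The authors deposited non-normalized threshold cycles, a log2 scale, for 530 wells: 517 miR assays on 2 cards (335 and 182) and 13 control wells. Per the values, 40 stands for no amplification. The sources used here do not name the instrument or software. The deposited normalized table, on the same log2 scale, equals the cycle minus the mean of snoRNA202 and snoRNA429.

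Minus the cycle, with wells at 35 or later set to 35, was expressed relative to each array's mean over the 285 miRs found in every mouse. The 353 miRs detected in at least 3 mice of a group were tested in 1 model of 3 groups with limma 3.58.1 in R 4.3.3 (lmFit, eBayes, two-sided, Benjamini-Hochberg over 353 miRs, threshold 0.05). Each sample is a separate mouse. No counts exist, so precision rests on the number of mice. Folds take 1 cycle as 1 doubling, unchecked here.

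The member and lists were chosen with earlier results of these data known. Named were miR-132, the 5 miRs most correlated with it and, per list, the 3 smallest p at 10 months. A test of miR-212 was planned, and it is not analysed here. Alternatives changed the centre, limit, filter, variance model, samples and replicate block.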

Additional observations from a re-analysis of the deposited data

How the results depend on the processing

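The limma call of miR-132 did not change in any of 24 alternatives per comparison: it missed the threshold in each. Its adjusted p ranged from 0.0684 to 0.996 at 10 months, 0.353 to 0.993 at 3 months and 0.366 to 0.999 between them. Its log2 fold kept its sign except at 3 months with the small-RNA control assays (-0.10, exact p = 0.886). Leaving out 1 mouse gave 0.69 to 1.27 at 10 months, 0.44 to 0.71 at 3 months and 0.09 to 0.68 between them. The exact test, at 0.0571 with the array mean, reached 0.0286 under other settings that put every diet mouse above every control. That is its smallest possible value, here not adjusted over the 3 comparisons. The share of all miRs so separated was not counted under these settings. At 10 months these were the array median (1.17), quantile normalization (0.93), each card centred by itself (0.93), deposited normalized values (1.16) and a limit of 32 cycles (0.92). At 3 months they were the array median (0.56), quantile normalization (0.67), each card by itself (0.53) and the 32-cycle limit (0.59). Other settings with all mice gave a larger exact p. At 10 months it was 0.2 with the small-RNA control assays and 0.571 with no normalization. At 3 months it was 0.4 with no normalization and 0.629 with deposited values, beside the 0.886 above. The small-RNA control assays also turned the 3-month folds of miR-126-3p (-0.14), miR-222 (-0.17) and miR-29a (-0.25), since they lower all 3-month folds by the same amount.

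The count of called miRs depended more on the processing. At 10 months 16 became 0 with the control assays, no normalization, deposited values or only the 2 groups, 1 with no filter, 29 with only miRs detected in every sample, and 1 to 12 with 1 mouse left out. Between 10 and 3 months 0 became 4 with quantile normalization, 5 with each card by itself and 1 with deposited values or a variance trend. At 3 months it was 0 to 1 with 1 mouse left out.

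With the replicate number as a replicate block the folds of miR-132 were 0.88 (limma adjusted p = 0.0966), 0.59 and 0.29, and 6 miRs were called at 10 months. The labels do not say that a number pairs mice. Deviations of same-numbered mice correlated from -0.36 to 0.47 (7 of 10 pairs above 0.1). Among mice of the other groups, 7 of 11 mice correlated best with one of their own number. The count expected without pairing was not worked out, so pairing by number was neither shown nor excluded. Centring each card by itself, chosen after seeing the data, left the same 5 miRs most like miR-132 (r from 0.84 to 0.92). Alternatives for miR-212 were not run.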

Other observations

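At the other end of the order, the miR least like miR-132 over the 11 mice was miR-199b*, named after its values were seen. Its Pearson r with miR-132 was -0.90 and its Spearman rho -0.89. As deviations from the group means r was -0.93, and with the 2 farthest mice left out it was -0.86. It stands on the second card, and with each card centred by itself r was -0.92. These values describe 11 mice and carry no test.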
